A study of Drosophila melanogaster with 39 samples.

Results

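The regions described here lie at promoters in Kc167 cells, a *Drosophila* embryonic line of hemocyte type. These regions were shared by CP190 and Su(Hw) and overlapped no Cul4 site of the rabbit antibody. They were selected on the peak calls of control cells, as follows. Overlapping peaks of the 3 control lists of a factor were joined (1 bp was enough), and joined regions that held a peak from each of the 3 lists were kept as sites. Of 7116 CP190 sites found in this way, 726 overlapped a Su(Hw) site, overlapped no Cul4 site of the rabbit antibody, and overlapped a promoter, taken as the start (TSS) of any annotated transcript and the 1500 bp upstream of it. They held 743 of the 3758 Su(Hw) sites. The promoters belonged to 900 of 18358 annotated genes, or 4.90%. Since the sites were chosen by control calls, their control calls and control strength are given as a description and were not tested.

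The study compared cells treated for 4 days at 25 °C with dsRNA against *mcherry*, a sequence the cells lack and which serves as the control, with cells treated with dsRNA against *eff* or against *cul4*. CP190, Su(Hw) and Cul4 (rabbit antibody) were each profiled by ChIP-seq in 3 biological replicates of the 3 treatments, and Cul4 was also profiled with a mouse antibody in control cells. All cells were of the same line, grown in CCM3 medium and fixed with formaldehyde, and a dsRNA knockdown (kd) lowers a transcript without removing the gene. For each peak the lists give a fold enrichment, the pileup of reads at the summit relative to the local background.

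Insulators are DNA elements with bound proteins that can shield a promoter from an enhancer or block the spread of silent chromatin. Su(Hw) is a zinc finger protein that recognizes its sites directly, most famously in the *gypsy* retrotransposon, and CP190 is a cofactor brought to chromatin by several such DNA-binding proteins. Away from *gypsy*, Su(Hw) also represses genes, among them neuronal genes that are kept silent in the female germ line. Ubiquitin is passed to its targets in steps. The *eff* product belongs to the E2 enzymes, which carry activated ubiquitin, and the *cul4* product holds together the subunits of an E3 ligase, which brings that ubiquitin to chosen proteins.

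The sequence under the summits is shown first, because it is the feature of these sites that the selection did not use. The core of the Su(Hw) motif, GCATACTT or its reverse complement AAGTATGC, lay within 100 bp of the Su(Hw) summit at 316 of the 726 sites. The following lines give 3 of the most strongly enriched sites in control cells and the promoter site of *spz*, which encodes the Toll ligand Spätzle, in release 6 of the genome (dm6, RefSeq) and read 5′ to 3′ on the strand that holds the core, shown in capitals with 30 bases to either side.
pyd (chr3R:8863307-8863374, minus strand): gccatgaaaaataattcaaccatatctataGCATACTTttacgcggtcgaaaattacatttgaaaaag
CG15024 (chr3L:4464794-4464861, plus strand): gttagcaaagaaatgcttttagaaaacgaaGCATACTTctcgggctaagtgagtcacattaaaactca
Edg84A (chr3R:6683843-6683910, plus strand): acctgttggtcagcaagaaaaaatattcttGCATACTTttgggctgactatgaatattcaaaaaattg
spz (chr3R:27071907-27071974, plus strand): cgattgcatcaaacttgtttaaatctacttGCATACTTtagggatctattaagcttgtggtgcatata
*pyd* encodes a scaffold of cell junctions, and *Edg84A* encodes a cuticle protein. The next 4 sites, shown in the same way, were among those with a higher CP190 fold enrichment after knockdown, at *slo* past the threshold in *cul4* kd cells and at the others in both knockdowns.
IA-2 (chr2L:1047689-1047756, plus strand): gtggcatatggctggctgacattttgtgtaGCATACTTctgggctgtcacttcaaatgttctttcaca
SP1173 (chr3L:6703612-6703679, plus strand): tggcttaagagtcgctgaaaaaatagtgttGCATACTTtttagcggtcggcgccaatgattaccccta
tRNA:Leu-CAA-2-3 (chr3R:23601746-23601813, plus strand): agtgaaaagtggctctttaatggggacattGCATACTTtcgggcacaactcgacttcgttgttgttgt
slo (chr3R:24662186-24662253, minus strand): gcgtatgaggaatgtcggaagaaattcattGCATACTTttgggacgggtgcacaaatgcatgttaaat
The next 3 were among those with lower Su(Hw) fold enrichment after knockdown, and the last, at *Cul3*, which encodes another cullin scaffold, passed the test in neither knockdown.
CG5968 (chr2L:16551440-16551507, minus strand): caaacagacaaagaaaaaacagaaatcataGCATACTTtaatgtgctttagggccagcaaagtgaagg
lncRNA:CR43654 (chr3R:22779830-22779897, minus strand): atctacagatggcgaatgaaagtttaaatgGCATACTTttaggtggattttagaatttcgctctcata
TfIIFbeta (chr3R:10769992-10770059, minus strand): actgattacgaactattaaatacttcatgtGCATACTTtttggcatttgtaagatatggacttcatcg
Cul3 (chr2L:15272502-15272569, minus strand): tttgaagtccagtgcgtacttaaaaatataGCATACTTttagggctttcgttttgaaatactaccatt
The site at the promoter of *su(Hw)* itself, centred here on the Su(Hw) summit, carried no core within 100 bp.
su(Hw) (chr3R:14308092-14308159, plus strand): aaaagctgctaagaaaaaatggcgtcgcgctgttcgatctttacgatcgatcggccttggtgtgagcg
Apart from that of *su(Hw)*, the sites shown were picked because they carry the core. It was not found within 100 bp of the summit at *CG14621*, *lncRNA:CR44467*, *5-HT2B* and *sick*, which fell after knockdown and are described with the strength of binding, nor at *CG4459* and *CG32369*, which with *CG14621* make 3 of the 6 sites of the highest control rank. The bases around the core were conserved to different degrees. Over the 316 sites with a core, the base after it was T in 81.0%, the base at position 4 after it was G in 77.8% and that at position 5 was G in 89.6%. At the other positions up to 5 bases to either side the commonest base reached 34.2 to 67.7%. Over the 929 cores at shared sites outside promoters the shares at positions 1, 4 and 5 were 82.0%, 71.7% and 88.3%.

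The core was present in 43.5% of the sites (exact Clopper-Pearson 95% interval 39.9 to 47.2%), with a median distance of 10 bp from its middle to the summit. Windows of the same length centred 1 kb to either side of these summits held it in 8 of 1452, or 0.551%, and windows on all annotated TSS held it in 136 of 23676, or 0.574%. The 1903 Su(Hw) sites at shared CP190 sites outside promoters held it in 48.8% (46.5 to 51.1%), and all Su(Hw) sites that could be read held it in 44.0%. A degenerate Su(Hw) consensus was found in 32.0% (28.6 to 35.5%) of the promoter sites. It was found in 38.6% (36.4 to 40.8%) of those 1903 sites. The differences between the promoter sites and the 1903 sites were not tested. In contrast, the core was found at 0.661% of the 1665 promoter CP190 sites with neither Su(Hw) nor Cul4 and at 0.613% of the 2119 promoter CP190 sites with Cul4 and without Su(Hw).

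Motifs of other promoter and insulator proteins were each found in less than 4% of the windows at these summits. GTGTGACC, a motif of the promoter factor M1BP, was found (both strands) in 0.964% of the windows at the shared promoter sites, in 10.6% at promoter CP190 sites alone, in 15.1% at promoter CP190 sites with Cul4 and in 4.74% of all TSS windows. TATCGATA, which reads the same on both strands and is bound by the insulator protein BEAF-32, was found in 0.551%, 14.5%, 13.8% and 5.44% of the same windows. AGGTGGCG, which resembles the CTCF motif, was found in 1.65% of the shared promoter windows, 0.578% of the shared windows outside promoters, 2.28% at promoter CP190 sites alone, 1.51% at those with Cul4 and 0.444% of TSS windows. GAGAGAG, the repeat bound by GAGA factor, was found in 3.44%, 2.57%, 1.32%, 2.08% and 4.48% of the same windows. None of these strings contains another of the set, and a match is a string of letters and not a measured binding site.

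The shared promoter sites were wide and strongly enriched in control cells. Their median width was 841 bp, with a range of 382 to 2996 bp, against 690 bp over all CP190 sites. The median fold enrichment of CP190 over the 726 sites was 10.6, 9.58 and 10.5 in the 3 control libraries, against 8.49, 6.66 and 7.99 over all CP190 sites. That of Su(Hw) over its 743 sites was 9.77, 9.95 and 9.22, against 8.16, 8.16 and 7.28 over all Su(Hw) sites. Sites with the core ranked slightly higher than the rest, with a median Su(Hw) rank in the control lists at percentile 73 against 67.2 and a median CP190 rank at percentile 77 against 72.9.

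CP190 and Su(Hw) peaked at the same place. The median gap between their summits was 12 bp, and 90.5% of the sites had a gap of 50 bp or less, as did 94.9% of the 1873 shared sites outside promoters. At 11 sites the summits lay over 500 bp apart, among them the site of *eag*, which encodes a voltage-gated potassium channel (1315 bp). Although chosen for a promoter, few sites lay on a TSS. Distances were taken to the nearest TSS among those whose promoter window the site overlapped. That window covers the TSS and the 1500 bp upstream, so an upstream position follows largely from the selection. The Su(Hw) summit lay upstream of this TSS at 653 sites (89.9%), at a median of 662 bp upstream. It lay within 100 bp of the TSS at 57 sites (7.85%). The promoter of 1 gene was overlapped at 570 sites, and 103 sites lay at promoters on both strands.

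**Figure D1:**
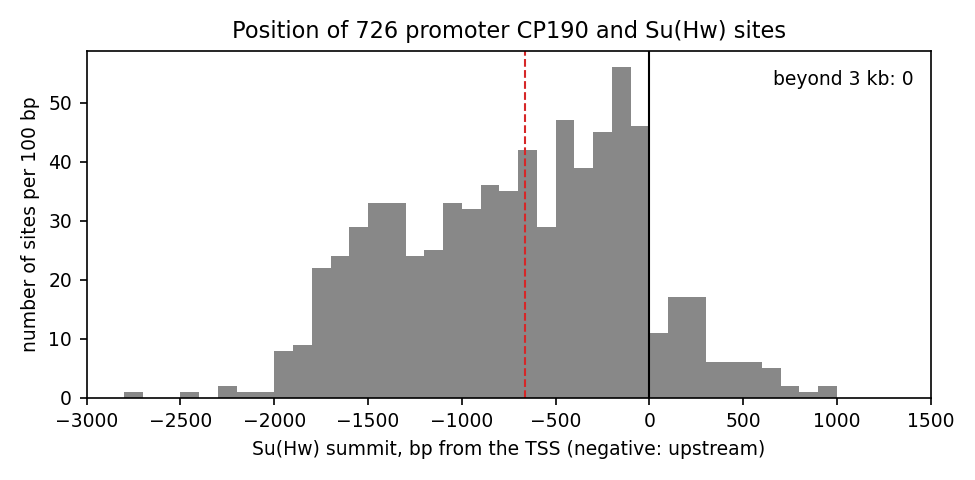
Number of promoter CP190 and Su(Hw) sites (y axis, per 100 bp) by the distance of the Su(Hw) summit from the nearest TSS (x axis, bp, negative values upstream). The black line marks the TSS and the red dashed line the median at 662 bp upstream, and 653 of the 726 summits lie to the left of the TSS. The TSS is one whose upstream window the site overlapped, so the selection favoured the left side.

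The genes at these sites were mostly protein-coding (731 of 900), with 140 genes of other non-coding RNAs and 19 tRNA genes. Those 19 made up 6.09% of the 312 annotated tRNA genes, against 5.23% of all protein-coding genes. The sites were spread over the major arms, with 176 on 3R, 159 on 3L, 145 on 2R, 137 on 2L, 107 on X and 2 on chromosome 4. Of 24 neuronal and synaptic genes that matched the annotation, 5 had such a site (20.8%, against 4.90% of all genes), namely *slo*, *Gad1*, *Syt1*, *cac* and *eag*. Of 26 genes of the Toll, Imd and JAK/STAT pathways 3 had one, and of 35 signalling ligands and receptors 3 had one. There was 1 each among 21 insulator protein genes (*su(Hw)*), 24 ubiquitin and Cullin genes (*Cul3*) and 24 hemocyte genes (*LanA*, a laminin subunit). None was found at 26 axon guidance, 25 cell cycle, 20 ecdysone response, 18 germline, 15 heat shock or 11 Hox genes. No test was made on these counts, and the gene lists were chosen with earlier results of these data known. A gene with more annotated TSS has more windows to overlap, which the share over all genes does not allow for.

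The limits of the selection fell as follows. The sites of *CG17751* and *CG43231* entered with 2 and 3 bp inside a promoter window, and that of *CG9541* lay 2 bp outside one. The smallest overlap of a CP190 with a Su(Hw) site was 282 bp, at *Shaw* and *asRNA:CR45342*, while the promoter CP190 site at *Rpt6R* missed a Su(Hw) site by 150 bp. A further 71 promoter regions with Su(Hw) had a CP190 peak in only 2 of the 3 control lists. A rabbit Cul4 peak was absent from all 3 control lists at 668 of the 726 sites, present in 1 list at 25, in 2 at 30 and in 3 at 3, where the peaks did not join into one site. The mouse antibody had a site at 62 (8.54%), against 10.3% of all CP190 sites. Its share was 7.27% at promoter CP190 sites alone, 3.47% at shared sites outside promoters and 11.0% at promoter CP190 sites with rabbit Cul4. The selection therefore does not make the sites free of Cul4 peaks.

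Differences between libraries bear on all comparisons that follow. The lowest background implied by the fold and p of the peaks, a measure of depth, was 13.8 to 17.8 reads in the CP190 control lists, 10.5 to 12.8 after *eff* kd, and 14.1, 6.66 and 3.39 after *cul4* kd. In the Su(Hw) lists it was 15.3 to 16.3 in control cells, 5.95, 15.6 and 16.5 after *eff* kd, and 7.46, 7.34 and 20.2 after *cul4* kd. The highest fold that a list held moved the other way, from 18.6 to 21.9 in the CP190 control lists up to 50.8 in *cul4* kd replicate 3. In the CP190 control lists 57, 16 and 58 of the 726 sites lay within 10% of that highest fold. The part of depth and of this ceiling in the results was not tested. Ranks within a list are given for control cells only. The folds printed for single sites are as deposited and carry these differences between lists. The labels call the replicates biological but do not say whether cultures were separate, so p-values measure the spread between these libraries, which may be technical.

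The first question was whether these sites stayed bound after knockdown. Nearly all CP190 calls remained. Of the 726 sites, 722, 721 and 715 were called in the 3 CP190 libraries of *eff* kd and 722, 700 and 671 in those of *cul4* kd. Thus 712 (98.1%) were called in all 3 *eff* kd libraries, against a background of 96.3% of all CP190 sites, and 668 (92.0%) in all 3 *cul4* kd libraries, against 83.3%. In *cul4* kd cells the share was 85.9% for shared sites outside promoters, 88.6% for promoter sites with Cul4 and 72.3% for promoter sites with CP190 alone. The lowest counts came from *cul4* kd replicate 3, the list with the lowest implied background. Without it 700 sites (96.4%) and 92.6% of all CP190 sites were called in the other 2.

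Control calls were fixed by the selection, so the sites were also rebuilt from each pair of control libraries and read in the control library left out. Rebuilt in this way, 90.8 to 100% of 704 to 802 CP190 sites were called in the control library left out, against 96.1 to 98.5% in the *eff* kd and 89.8 to 98.7% in the *cul4* kd libraries. The ranges overlapped for CP190. For Su(Hw) they were 98.9 to 99.9% in control, 93.6 to 98.5% after *eff* kd and 88.4 to 92.1% after *cul4* kd. Every knockdown library lay below every control library, the closest being *eff* kd replicate 2 (98.5%) and control replicate 3 (98.9%). Without rebuilding, 94.6, 98.9 and 97.3% of the 743 sites were called after *eff* kd, against 92.2, 98.4 and 96.8% of all Su(Hw) sites. After *cul4* kd the shares were 93.5, 90.0 and 93.5%, against 87.0, 81.1 and 89.9%. Calls were thus also lost over all Su(Hw) sites.

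The deposited Su(Hw) lists called 703, 735 and 723 of the 743 Su(Hw) sites after *eff* kd and 695, 669 and 695 after *cul4* kd. All 3 libraries called 700 of them (94.2%, background 91.8%) after *eff* kd and 663 (89.2%, background 79.6%) after *cul4* kd, and the shares at shared sites outside promoters were 97.1% and 90.0%. Both factors were called in all 3 libraries at 679 of the 726 sites (93.5%) after *eff* kd, at 630 (86.8%) after *cul4* kd, and at 625 (86.1%) in both knockdowns. The sites called less often were weak in control cells. The 58 sites called in fewer than 3 CP190 libraries of *cul4* kd had a median CP190 rank at percentile 33.0 in control cells, against 76.9 for the other 668.

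**Figure D2:**
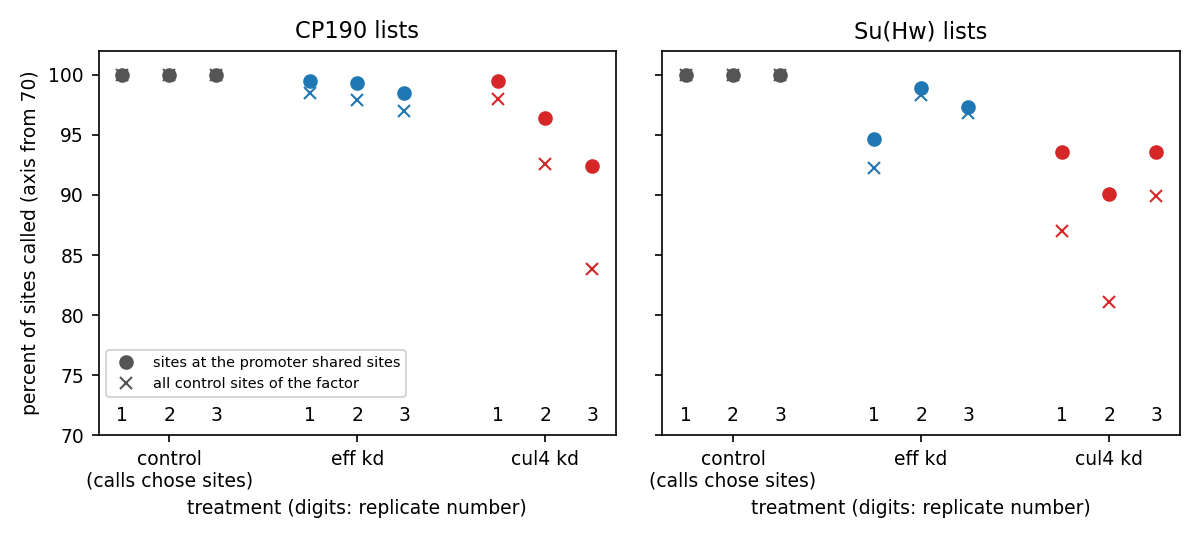
Percent of sites called (y axis, which starts at 70) in each CP190 and Su(Hw) library by treatment, with circles for the sites at the shared promoters, crosses for all control sites of the factor, and digits for the replicate. Control values are 100 because control calls chose the sites, and the lowest circles are the 92.4% of CP190 *cul4* kd replicate 3 and the 90.0% of Su(Hw) *cul4* kd replicate 2.

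Few sites lost all their calls. For CP190, 1 site was called in no *eff* kd library (0.138%, background 1.08%), that of *Pld*, a phospholipase D gene, and 4 in no *cul4* kd library (0.551%, background 2.00%). These 4 lay at *asRNA:CR46067* and *CG13484*, *asRNA:CR45121* and *Prps*, *CG43210* and *hemo*, and *CG13654*. At *Pld* the CP190 fold was 8.06, 3.76 and 6.14 in control cells and 3.55 in the 1 *cul4* kd library that called it. At *asRNA:CR45121*, which lies against *Prps*, the gene of an enzyme that makes the ribose phosphate donor of nucleotides, CP190 was called in all *eff* kd libraries at 3.48, 3.38 and 3.14 and in no *cul4* kd library. All 5 had weak control peaks, none above a fold of 8.06. For Su(Hw), 8 sites were called in no *eff* kd library (1.08%, background 1.44%) and 35 in no *cul4* kd library (4.71%, background 8.01%).

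Some sites lost all their Su(Hw) calls in a knockdown, and at 1 of them, *side-II*, CP190 stayed strong. At *side-II*, which encodes a cell surface protein of the Sidestep family, the Su(Hw) fold was 4.76, 5.21 and 4.21 in control cells and Su(Hw) was called in no knockdown library. There CP190 was 18.6, 20.6 and 18.2 in control cells, 14.0, 12.3 and 21.1 after *eff* kd, and 14.0, 18.9 and 22.2 after *cul4* kd, so that the treatments overlapped. At *tRNA:Val-CAC-1-1* and *CG14326* Su(Hw) was called in all control libraries (9.52, 10.6 and 8.79) and all *eff* kd libraries (7.87, 7.69 and 5.46) but in none after *cul4* kd, and CP190 peaked 2023 bp from it. At *CG5697* and *DIP-eta*, which encodes an immunoglobulin domain receptor of neurons, Su(Hw) was likewise called in every *eff* kd and no *cul4* kd library. CP190 at both was called in all control and *eff* kd libraries and missed in 1 *cul4* kd library, replicate 3.

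The second question was whether binding strength changed. Fold enrichment on the log2 scale was fitted with limma over all sites called in all 9 libraries of a factor, after setting the libraries to one median, and p-values were Benjamini-Hochberg adjusted over all those sites with a threshold of 0.05. This filter left 667 of the 726 CP190 sites and 659 of the 743 Su(Hw) sites, so weak sites that lost a call are not in the counts below. All log2 changes below are relative to the median of the tested sites unless no centring is stated, while folds are printed as deposited. Without centring, that median moved by 0.16 on the log2 scale for CP190 after *eff* kd and 0.34 after *cul4* kd, and by 0.13 and 0.02 for Su(Hw).

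After *eff* kd, CP190 rose at 39 of the 667 sites (5.85%) and fell at 40 (6.0%), against a background of 5.80% and 7.96% of all 5914 tested CP190 sites. After *cul4* kd it rose at 104 (15.6%) and fell at 42 (6.30%), against 12.1% and 13.7%. The median log2 change over the 667 sites was −0.07 after *eff* kd and 0.07 after *cul4* kd, and over all tested sites −0.04 and −0.01. Calls after *cul4* kd ran 18.1% higher and 7.37% lower at shared sites outside promoters, 6.09% and 19.8% at promoter sites with CP190 alone, and 10.8% and 17.4% at promoter sites with Cul4. The differences between these classes were not tested.

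**Figure D3:**
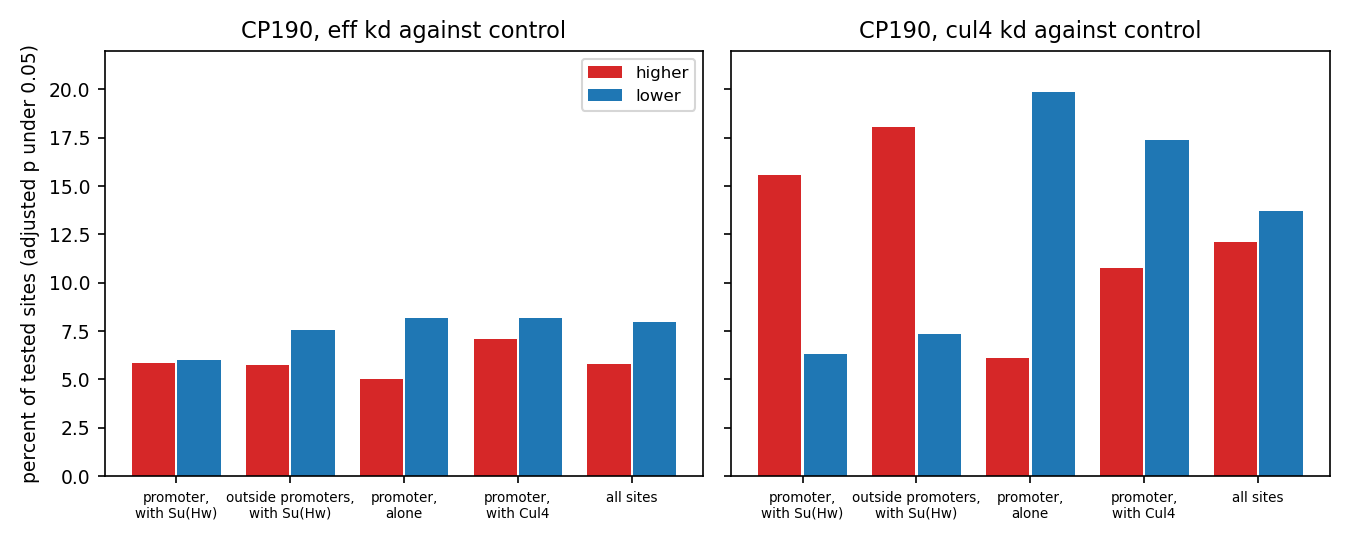
Percent of tested CP190 sites (y axis) with an adjusted p under 0.05 and a higher (red) or lower (blue) fold enrichment than control, for 4 classes of sites and all 5914 tested sites (x axis). After *cul4* kd the promoter sites with Su(Hw) have 15.6% higher and 6.30% lower, and the promoter sites with CP190 alone have 6.09% higher and 19.8% lower.

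The CP190 counts depended on single libraries and on the scaling. With no centring, CP190 was higher at 47 and lower at 1 site after *eff* kd, and higher at 254 and lower at 5 after *cul4* kd, so the balance after *eff* kd and the falls rest on the centring. Under quantile normalization, which keeps ranks within a list, there were 91 higher and 86 lower after *eff* kd, and 116 higher and 72 lower after *cul4* kd. The *eff* kd count of 79 became 24 without control replicate 1, 5 without control replicate 3, and 12, 21 and 43 without *eff* kd replicate 1, 2 or 3. It became 158 without *cul4* kd replicate 1 and 131 without *cul4* kd replicate 3, which share the estimate of spread. The *cul4* kd count of 146 became 74 without control replicate 1, 71 without control replicate 3, 95 without *cul4* kd replicate 2 and 252 without *cul4* kd replicate 1, with more sites higher than lower each time.

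Su(Hw) at the same places rose and fell in nearly equal numbers. After *eff* kd it rose at 85 of the 659 tested sites (12.9%) and fell at 106 (16.1%), against a background of 13.6% and 13.4% of 2970 sites. After *cul4* kd it rose at 101 (15.3%) and fell at 96 (14.6%), against 14.9% and 14.8%. The shares lie near those over all Su(Hw) sites. With no centring there were 49 higher and 5 lower after *eff* kd and 31 higher and 10 lower after *cul4* kd. The *eff* kd count of 191 became 116 and 96 without control replicate 2 or 3, and 100 and 125 without *eff* kd replicate 1 or 2.

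CP190 and Su(Hw) changed together. At the 625 sites tested for both, both rose at 37 and both fell at 28 after *eff* kd, both rose at 82 and both fell at 28 after *cul4* kd, and at none did one rise and the other fall. The signs of the changes matched at 87.8% of these sites after *eff* kd and 83.0% after *cul4* kd. At shared sites outside promoters they matched at 87.4% and 84.3%. The log2 changes of the factors had a Pearson r of 0.89 after *eff* kd and 0.89 after *cul4* kd across these 625 sites, and 0.90 and 0.91 across 1534 shared sites outside promoters. These are correlations across sites, which are not independent replicates. The CP190 and Su(Hw) lists of a treatment also share inputs as their background, and the part of these inputs in the correlation was not tested. Where CP190 and Su(Hw) differed, Su(Hw) more often passed alone, at 122 sites after *eff* kd against 6 for CP190, and at 78 against 26 after *cul4* kd. The share of sites past the threshold was also higher for Su(Hw) over all tested sites, as given above.

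**Figure D4:**
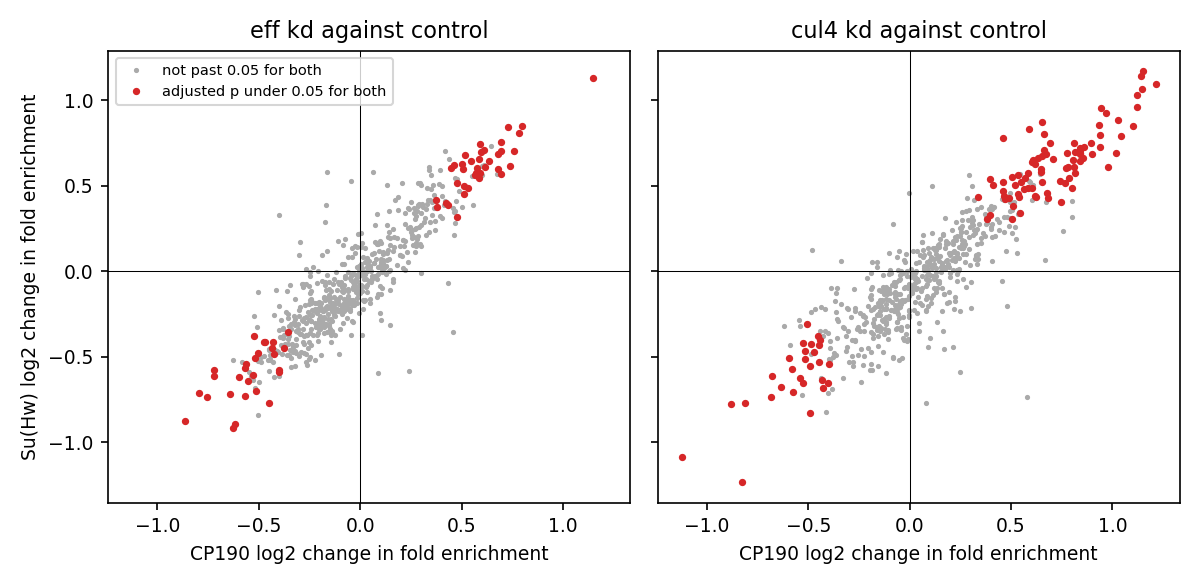
Log2 change of CP190 fold enrichment (x axis) against that of Su(Hw) (y axis) after *eff* kd (left) and *cul4* kd (right), 1 point for each of the 625 sites tested for both. Red points passed an adjusted p of 0.05 for both factors, and none of them lies in a quadrant where the factors move in opposite directions.

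The site of *IA-2* showed the largest rise after *eff* kd. *IA-2* encodes a receptor-type tyrosine phosphatase-like protein of dense core vesicles. CP190 there was 5.65, 5.94 and 5.71 in control cells, 13.9, 16.1 and 14.2 after *eff* kd, and 10.7, 14.7 and 15.3 after *cul4* kd. Every knockdown library lay above every control library. The median CP190 fold over the 726 sites also lay above control in every knockdown library. It was 10.6, 9.58 and 10.5 in control cells, 12.2, 12.3 and 12.2 after *eff* kd, and 11.9, 16.2 and 18.6 after *cul4* kd. CP190 folds above control without overlap, here and at the sites below, are therefore a description. The log2 change at *IA-2* was 1.15 ± 0.13 (SE, limma adjusted p = 0.0022) after *eff* kd and 0.86 ± 0.13 (limma adjusted p = 0.0012) after *cul4* kd. Su(Hw) at *IA-2* was 5.78, 5.87 and 5.71 in control cells, 19.6, 14.0 and 10.6 after *eff* kd, and 13.8, 13.4 and 5.29 after *cul4* kd, where the third library overlapped the control.

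A group of sites rose for both factors in both knockdowns, with more spread among the *cul4* kd libraries. At *Ae2*, which encodes an anion exchanger, CP190 was 8.72, 10.4 and 9.55 in control cells, 18.0, 20.4 and 18.7 after *eff* kd, and 16.4, 28.5 and 42.4 after *cul4* kd (log2 changes 0.80 and 1.15, limma adjusted p = 0.037 and 0.0042). At *Fatp3*, a fatty acid transport protein gene, it was 10.7, 8.77 and 9.31, then 18.7, 19.4 and 18.6, then 19.4, 27.7 and 37.3. In both, *cul4* kd replicate 3 was the highest library, as it was for the median CP190 fold of the 726 sites. Neither knockdown overlapped the control. The same held at *SP1173*, where CP190 rose from 9.24, 7.55 and 8.12 to 16.1, 16.2 and 15.4 and to 14.6, 22.7 and 31.1. The largest CP190 rise after *cul4* kd was 1.22 ± 0.20 on the log2 scale, at *CG11044* and *tRNA:Gly-GCC-1-11* (limma adjusted p = 0.0016). Another tRNA gene, *tRNA:Leu-CAA-2-3*, rose for both factors in both knockdowns, with log2 changes of 0.68 and 1.03 for Su(Hw). *lncRNA:CR44688*, *lncRNA:CR45964* and *CG45263* also rose for both factors in both knockdowns, and *CG13907* rose for CP190 in both.

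At the promoter of *su(Hw)*, the gene of the motif-binding factor, CP190 was 9.19, 7.21 and 7.89 in control cells, 13.1, 16.3 and 13.2 after *eff* kd, and 11.2, 20.3 and 27.7 after *cul4* kd. Su(Hw) was 9.61, 7.42 and 8.70, then 21.4, 15.0 and 10.1, then 15.7, 20.5 and 9.15. The CP190 groups did not overlap, while for Su(Hw) *cul4* kd replicate 3 lay within the control range. CP190 rose by 0.84 ± 0.20 on the log2 scale after *cul4* kd (limma adjusted p = 0.0098), and its change after *eff* kd was 0.61 ± 0.20 (limma adjusted p = 0.058). Su(Hw) rose by 0.62 after *eff* kd (limma adjusted p = 0.022) and by 0.69 after *cul4* kd (limma adjusted p = 0.010). The Su(Hw) summit lay 463 bp downstream of the nearest TSS, and the window also covers *Polr2I*, an RNA polymerase II subunit gene.

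The site of *CG5968* fell for both factors in both knockdowns. Its CP190 fold was 12, 8.48 and 11.2 in control cells, 7.37, 6.11 and 7.94 after *eff* kd, and 5.82, 5.69 and 6.95 after *cul4* kd, with no overlap between control and either knockdown. The log2 change was −0.76 ± 0.13 (limma adjusted p = 0.0058) and −1.125 ± 0.13 (limma adjusted p = 0.00047). Su(Hw) at *CG5968* was 12.1, 12.7 and 10.9, then 9.04, 7.11 and 8.20, then 5.23, 6.76 and 5.59. The falls of both factors after *cul4* kd were also past the threshold under quantile normalization and with no centring.

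Other sites also fell after *cul4* kd. At *lncRNA:CR44467* and *IntS8*, an Integrator subunit gene, Su(Hw) was 12.4, 11.6 and 9.83 in control cells, 11.4, 8.0 and 8.13 after *eff* kd, and 5.09, 5.34 and 4.47 after *cul4* kd, the largest Su(Hw) fall after *cul4* kd at the tested sites (−1.24 ± 0.11, limma adjusted p = 5.28e-05). CP190 there was 15.1, 11.9 and 14.2, then 13.3, 12 and 13.8, then 9.32, 10.6 and 9.72, and it was lower after *cul4* than after *eff* kd by 0.56 on the log2 scale (limma adjusted p = 0.035), as was Su(Hw) by 0.75 (limma adjusted p = 0.0033). At *CG5535* and *CG34002* CP190 fell by 1.01 on the log2 scale after *cul4* kd and Su(Hw) was called in none of those libraries. *Zir*, which encodes a guanine nucleotide exchange factor of the DOCK family, and *CG9922* fell for CP190 by 0.95 and 0.88 after *cul4* kd, and by 0.44 and 0.40 after *eff* kd. Among these sites the direct difference between the knockdowns is given only for *lncRNA:CR44467*.

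The site with the highest control rank of the 726, at *CG14621*, passed for CP190 after *eff* kd only, with a fall. Its rank was set by the control folds that also enter the change, which favours a fall. CP190 was 19.0, 20.3 and 18.4 in control cells, 11.4, 11.8 and 13.3 after *eff* kd, and 16.5, 29.6 and 30.3 after *cul4* kd. The *eff* kd libraries lay below all others, and the *cul4* kd libraries lay on both sides of the control. The log2 changes were −0.86 ± 0.19 (limma adjusted p = 0.013) and −0.00 ± 0.19 (limma adjusted p = 0.99), and the direct difference of *cul4* from *eff* kd was 0.86 (limma adjusted p = 0.037). Control values here lay close to the highest fold of their lists, and with no centring the *eff* kd fall had an adjusted p of 0.077. The next 5 by control rank, *pyd*, *CG15024*, *CG4459*, *Edg84A* and *CG32369*, passed for neither factor in either knockdown.

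**Figure D5:**
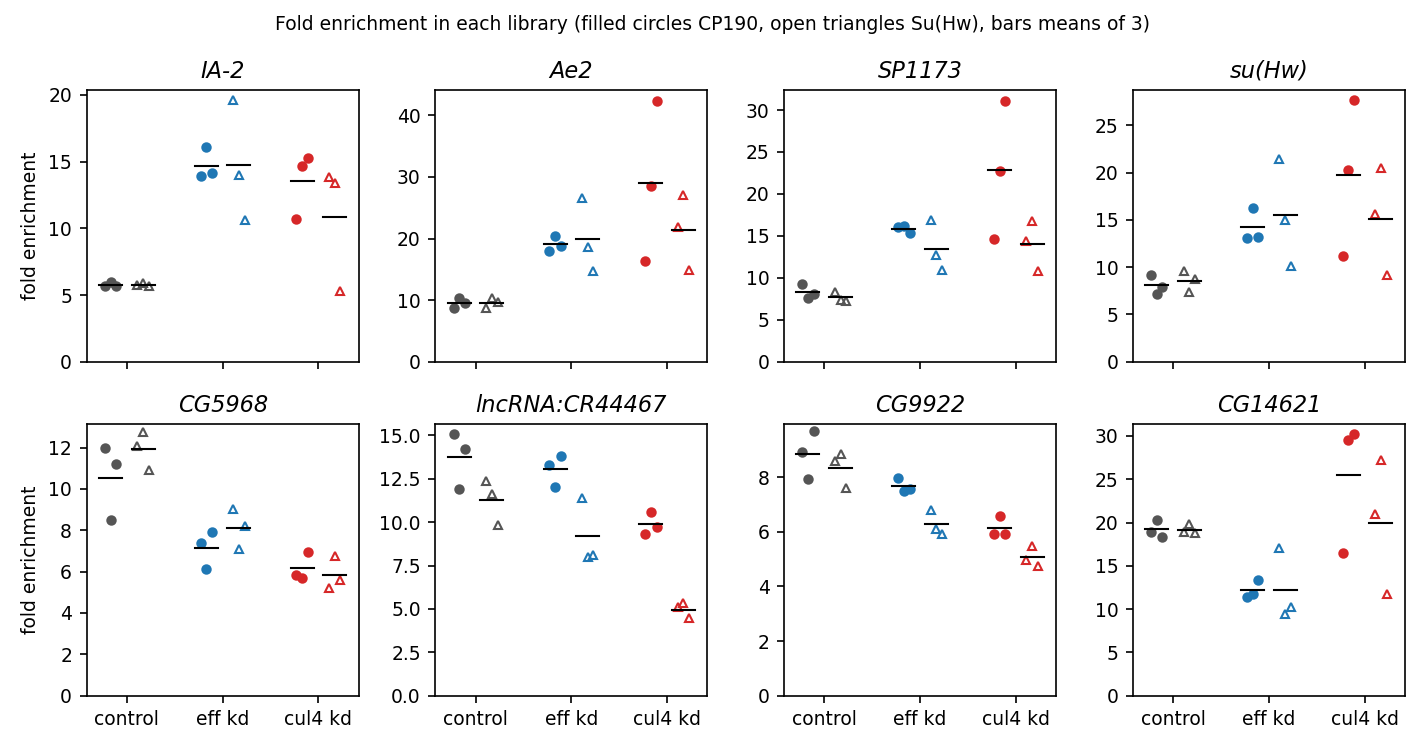
Fold enrichment (y axis, different scales) in each library at 8 sites, by treatment (x axis), with filled circles for CP190, open triangles for Su(Hw) and bars for the mean of 3 libraries. The upper sites were higher after knockdown, as at *IA-2*, where CP190 goes from 5.65 to 5.94 in control cells to 13.9 to 16.1 after *eff* kd, and the lower sites were lower after at least 1 knockdown, with *CG14621* lower after *eff* kd alone.

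Further falls after *eff* kd were seen at genes of different kinds. CP190 fell at *5-HT2B*, a serotonin receptor gene (11.9, 7.75 and 10.5 in control cells and 6.96, 8.69 and 4.62 after *eff* kd, groups that overlap, log2 change −0.80). It also fell at *sick* (−0.72), *CG17544* (−0.72) and *cher*, the filamin gene (−0.73). Su(Hw) fell most at *CG15209*, from 7.38, 6.32 and 6.94 to 4.79, 4.99 and 2.91 (−0.92 ± 0.17, limma adjusted p = 0.0020). At *TfIIFbeta*, which encodes a subunit of the general transcription factor TFIIF, Su(Hw) fell from 13.6, 12 and 11 to 9.62, 6.84 and 6.86, with no overlap, and the CP190 change of −0.50 did not pass (limma adjusted p = 0.066). At *lncRNA:CR43654* and *CG7029* both factors fell in both knockdowns, Su(Hw) by 0.89 and 0.83 on the log2 scale.

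The neuronal genes did not share 1 direction. At *slo*, which encodes a calcium-activated potassium channel, CP190 was 9.33, 11.5 and 10.6 in control cells, 14.1, 15.3 and 13.5 after *eff* kd, and 18.2, 20.3 and 19.9 after *cul4* kd. Both knockdowns lay above the control, and the change passed after *cul4* kd (0.54, limma adjusted p = 0.022) and not after *eff* kd (0.25, limma adjusted p = 0.29), while the difference between the knockdowns was 0.29 (limma adjusted p = 0.31). *Gad1*, whose product makes the transmitter GABA, rose for Su(Hw) after *eff* kd by 0.34 (limma adjusted p = 0.025), and *eag* did so by 0.58 (limma adjusted p = 0.0054) and was lower by 0.76 on the log2 scale after *cul4* than after *eff* kd (limma adjusted p = 0.0074). At *Syt1*, the calcium sensor of synaptic vesicle release, CP190 fell by 0.43 after *cul4* kd (limma adjusted p = 0.036), and Su(Hw), at 6.15, 6.19 and 5.66 in control cells, was called in 2 *eff* kd and no *cul4* kd libraries. With no centring the CP190 change at *Syt1* was −0.07. At *cac*, a voltage-gated calcium channel gene, CP190 was called in 1 library of each knockdown, while Su(Hw) was called in all and fell after *eff* kd by 0.39 (limma adjusted p = 0.017).

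Of the 6 sites at immune and signalling genes, 3 passed for Su(Hw) after *eff* kd and none for CP190 in either knockdown. At *spz* CP190 was 16.0, 17.2 and 15.9 in control cells, 16.6, 13.8 and 19.3 after *eff* kd, and 15.8, 26.4 and 31.8 after *cul4* kd, with overlap and log2 changes of −0.19 and 0.17 that did not pass. *Drs*, which encodes the antifungal peptide Drosomycin, passed for neither factor. *DptA*, an antibacterial peptide gene, passed for Su(Hw) after *eff* kd (−0.49, limma adjusted p = 0.036). Of the receptor genes, *htl* (an FGF receptor) fell for Su(Hw) after *eff* kd by 0.49, *sev* (a receptor tyrosine kinase of the eye) fell for Su(Hw) by 0.35 and 0.34 in the *eff* and *cul4* kd, and *tkv* (a BMP receptor) passed for neither factor. *Cul3* passed for neither, with CP190 at 12.2, 13.2 and 12.3 in control cells, 15.5, 13.6 and 16.0 after *eff* kd, and 14.2, 21.3 and 20.3 after *cul4* kd. At *LanA* CP190 was 4.10, 4.02 and 5.06 in control cells and was missed in 1 *cul4* kd library, so it was not tested.

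The knockdowns were also compared with each other. CP190 was higher after *cul4* than after *eff* kd at 9 of 667 sites and lower at 4, against a background of 1.17% and 1.39%, and Su(Hw) was higher at 14 of 659 and lower at 7, against 1.72% and 0.943%. With no centring the Su(Hw) split turned to 0 higher and 6 lower. The CP190 count of 13 ranged from 1 without *eff* kd replicate 1 to 138 without *cul4* kd replicate 1, and the Su(Hw) count of 21 from 3 without *cul4* kd replicate 1 to 79 without *cul4* kd replicate 3. At *CG43255*, named after its values were seen, the CP190 log2 change was −0.40 after *eff* kd and 0.33 after *cul4* kd, and the direct difference was 0.73 (limma adjusted p = 0.0044).

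Features of the sites went along with calls to different degrees. After *cul4* kd all 3 Su(Hw) libraries called 93.7% of the 316 sites with the core and 86.3% of the 410 without it, and for CP190 the shares were 93.7% and 90.7%. Sites with the core also had the higher control ranks given above. Of the 646 sites tested for Su(Hw), 295 had the core, and of these 42 rose and 38 fell after *eff* kd and 52 rose and 36 fell after *cul4* kd. Of the 351 without the core 41 rose and 68 fell, and 46 rose and 60 fell. No split by core over all Su(Hw) sites is given, so these counts are not a trait of the promoter sites. The part of control strength in them was not tested. Distance of the summit from the TSS made little difference to the calls, with 92.0% of sites within 250 bp and 91.3% of those beyond 750 bp called for CP190 in all 3 *cul4* kd libraries.

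Rises and falls were also counted by strength in control cells, which shares the control libraries with the contrast and is given as a description. The same control folds set the rank and enter the change, which by itself favours falls in the strongest class and rises in the weakest. The split therefore cannot tell strength from the choice of classes. In the Su(Hw) control lists 21, 16 and 10 of the sites lay within 10% of the highest fold. In the CP190 control lists 57, 16 and 58 did. The part of this ceiling in the split was not tested, and no such split over all sites is given. Split by control rank into 3 classes of 242 sites, the strongest class had 0 Su(Hw) rises and 52 falls after *eff* kd, the middle class 41 and 37, and the weakest 42 and 17. For CP190 after *cul4* kd the strongest class had 5 rises and 10 falls, the middle 60 and 15, and the weakest 39 and 17. CP190 was called in all 3 *cul4* kd libraries at 100% of the strongest, 99.6% of the middle and 76.4% of the weakest class.

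Rabbit Cul4 peaks were limited by the selection, which left out rabbit Cul4 sites of control cells. The lists had a peak at 14, 54 and 26 of the 726 sites in control cells, against 38.7, 43.5 and 38.7% of all CP190 sites. They had one at 70, 1 and 13 after *eff* kd, against 30.6, 4.05 and 4.85% of all CP190 sites, and at 6, 4 and 13 after *cul4* kd, against 26.5, 21.0 and 29.9%. The mouse antibody, which the selection did not use, had a peak at 10.5, 10.7 and 8.82% of the 726 sites in control cells, against 11.9, 12.2 and 10.5% of all CP190 sites and 12.3, 13 and 11.3% of promoter sites with rabbit Cul4. The *eff* kd lists of the rabbit antibody differed widely in size, with 4488, 571 and 424 peaks. At promoter sites with Cul4 the *eff* kd lists called 66.6, 9.53 and 7.69%, so replicate 1 stands apart in these lists.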

How the data were processed

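The 30 peak lists of Kc167 cells (3 replicates in each of 10 groups) were analysed, and the 9 inputs were not used here. Per the labels and the study's methods, the authors trimmed single-end 50 bp reads (cutadapt 3.4), aligned them to release 6 of the genome (dm6, Bowtie2 2.4.2), filtered at a mapping quality of 20 (SAMtools 1.12), removed duplicates (Picard) and ran MACS2 2.2.7.1 against input, with 1e-09 as the limit on q. A deposited list covers a single library and gives a fold enrichment (a ratio of pileup to local background, 1.40 to 50.8 over all lists) for each peak. The authors also gave −log10 p and −log10 q values, used here to judge depth and for a stricter filter, and a score that was used only to check them. Reads and read totals were not used here, so depth is known only from the implied background, and the ratio shrinks or grows with it.

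A site took the highest fold of its peaks in a library. log2 fold enrichment, computed from the deposited ratio with no pseudocount, was fitted with limma 3.58.1 in R 4.3.3 (intensity trend, median centring, all 9 libraries of a factor, sites called in all 9), and p-values were Benjamini-Hochberg adjusted over 5914 CP190 or 2970 Su(Hw) sites. The fit was tested on simulated data for *cul4* kd against control, where a planted log2 change of 1 was recovered at 90.5% of 200 CP190 and 94.0% of 200 Su(Hw) sites, and one of 0.5 at 26.0% and 59.5%. False calls numbered 6 and 16 with a change of 1, and 3 and 7 with one of 0.5. The simulated libraries varied independently, while deviations of some real libraries were correlated, as given below. Recovery in the real data may therefore differ. Shares have exact Clopper-Pearson intervals, which cover counting error only.

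Named sites were the 6 with the highest control rank, up to 6 with the largest rise and fall among those past the threshold per factor and knockdown, up to 6 called in no library of a factor and knockdown, those at genes of 12 lists, and those at the limits of the selection. The sites and gene lists were chosen with earlier results of these data known. Alternatives were another centring, a replicate block, no trend, 6 libraries only, a −log10 q of at least 20, other site, promoter and Cul4 rules, other motif windows, and libraries left out.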

Additional observations from a re-analysis of the deposited data

How the results depend on the processing

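The number of sites was 742 with a −log10 q of at least 20, 788 with a call in 2 of 3 control libraries, 668 with no Cul4 peak in any control list, 780 with promoters of 1 kb to either side of a TSS, and 704 to 802 with a replicate number left out. For each knockdown against control, no site called in both the fit above and another fit (block, quantile, no centring, no trend, nearest summit, 6 libraries, single libraries left out) had opposite signs. The block, the fit with no trend and leaving out a library of the other knockdown do not alter the log2 changes. Opposite signs could not occur in those fits. Other settings and the difference between knockdowns were not compared in this way. For the CP190 counts past the threshold, 79 after *eff* kd became 177 under quantile normalization, 48 with no centring and 190 in a fit of only the 6 libraries compared, and 146 after *cul4* kd became 259 with no centring. For *cul4* against *eff* kd the CP190 count of 13 became 25 (quantile), 7 (no centring) and 1 (6 libraries). The Su(Hw) counts of 191 and 197 became 54 and 41 with no centring, and the count of 21 for *cul4* against *eff* kd became 6 (no centring), 12 (no intensity trend) and 3 (6 libraries). All 79 CP190 calls after *eff* kd and 134 of the 146 after *cul4* kd were shared with quantile normalization.

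With a replicate number left out in every group, the CP190 counts ran 0 to 52 (*eff* kd), 18 to 166 (*cul4* kd) and 0 to 30 (between knockdowns), and the Su(Hw) counts 52 to 149, 79 to 167 and 0 to 29. With single libraries left out, an alternative chosen after seeing the data, they ran 5 to 158, 71 to 252 and 1 to 138 for CP190, and 96 to 234, 132 to 225 and 3 to 79 for Su(Hw). Sites called in no library are few. For CP190 after *eff* kd the count of 1 became 2 (−log10 q of at least 20), 24 (2 of 3 control libraries), 0 (1 kb promoters) and 1 to 27 with a replicate number left out. After *cul4* kd the 4 became 24 (2 of 3), 2 (no Cul4 peak) and 4 to 24. The 8 Su(Hw) sites became 19 (2 of 3), 4 (no Cul4 peak) and 8 to 25, and the 35 became 74 (2 of 3) and 44 to 62. Sites called in all 3 libraries ran 690 to 735, 645 to 696, 692 to 758 and 643 to 717 with a number left out. The share with the Su(Hw) core, 43.5%, was 45.0% within 250 bp and 32.0% for the degenerate consensus.

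Same-numbered libraries had correlations of their deviations from −0.345 to 0.536 for CP190, over 0.1 in 5 of 9 pairs, and from −0.448 to 0.238 for Su(Hw), over 0.1 in 1 of 9. The CP190 libraries numbered 1 did deviate together (0.431, 0.536 and 0.527), but not every pair passed 0.1, and the samples were not taken as paired. With a replicate block the counts were 104 and 171 for CP190 and 166 and 181 for Su(Hw) after *eff* and *cul4* kd, and 11 in place of 21 for Su(Hw) between knockdowns. Shallow lists cannot call weak sites, and the effect of depth on the fold was not tested.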
